A study of Mus musculus with 11 samples.

Results

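The type I interferon-stimulated genes of peritoneal PMNs (neutrophils) were followed as a list of 46 genes, named for their known induction by interferon, out of the 54164 genes listed for each library. The groups were 6 FOXO3 KO and 5 WT mice of strain C57BL/6, genotyped as homozygous, of both sexes and 6 to 8 weeks old. Every mouse, WT included, received casein into the peritoneum in 2 doses (1 mL each), which draws PMNs there, and the cells were taken 3 h after the last dose. Each mouse gave 1 RNA-seq library, unstimulated PMNs were not analysed here, and the methods give a PMN share of over 90% after enrichment. The columns of the table carry 2 kinds of number: 1, 2 and 3 in both genotypes (the single-digit libraries, 3 of FOXO3 KO and 3 of WT), and 05, 06 and 09 for FOXO3 KO with 03 and 08 for WT (the two-digit libraries), and the labels do not say what the difference stands for. The question here was whether loss of FOXO3, a forkhead transcription factor, goes with another level of the interferon-stimulated genes in PMNs, and how those genes vary from mouse to mouse.

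Interferon-α and interferon-β bind the IFNAR1 and IFNAR2 receptor chains, which signal through the kinases JAK1 and TYK2. The signal assembles ISGF3, a complex that holds STAT2 and IRF9, and ISGF3 binds the interferon-stimulated response element (ISRE) before its target genes. The products sense viral RNA and DNA, block viral entry, translation and release, attach ISG15 to proteins, and damp the signal again through USP18. PMNs carry this receptor and respond to it.

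All 46 genes were present in the table, and 43 had a mean of at least 1 TPM (transcript abundance scaled for length and to a fixed library total) and were tested. Ifi44, Ifit1bl1 and Batf2 lay under that limit. Ifi44 ranged over 0.0388 to 0.753 TPM in FOXO3 KO and 0.0687 to 0.440 TPM in WT libraries, and Ifit1bl1 over 0.210 to 2.01 TPM in FOXO3 KO and 0.170 to 1.65 TPM in WT libraries. Batf2, a basic leucine zipper transcription factor, ranged over 9.86e-05 to 1.27 TPM in FOXO3 KO and 0.789 to 2.53 TPM in WT libraries. Ifit1bl1 was the only member of the 46 whose mean was not lower in FOXO3 KO (0.903 ± 0.636 TPM, against 0.818 ± 0.547 TPM in WT libraries; SD, n = 6 and 5).

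The element that ISGF3 reads is written in the promoters of many members. The stretches below show it in some of the members that hold it before their start. RefSeq promoter windows of GRCm38.p6, each running 250 bases before to 50 after a start, could be matched for 35 of the 46 members. They were searched on both strands for the letters GAAANNGAAA, a plain form of the ISRE, where overlapping matches count separately. The letters were found in 19 of the 35 members (54.3%), against 3.44% of all 32851 windows and 3.99% of all 27025 genes with a window. In 15 members a match lay wholly before the start, while in Ddx58, Eif2ak2, Ifih1 and Ifitm3 the matches lay only after it. Oasl2 and Ifi47 had no match in their windows. The letters TTCNNNGAA, a plain form of the interferon-γ-activated site (GAS), were in 6 of the 35 (17.1%), against 9.55% of all genes. In the stretches, capitals mark the ISRE letters in either orientation, and all run 5′ to 3′ on the strand of the gene. They lie at chr4:156200845-156200926 (Isg15, minus strand), chr19:34640755-34640843 (Ifit1, plus strand), chr19:34583343-34583446 (Ifit3, plus strand), chr19:34607739-34607842 (Ifit3b, plus strand), chr5:120907526-120907575 (Oas1a, minus strand), chr5:120887614-120887661 (Oas1g, minus strand), chr12:26456533-26456602 (Rsad2, minus strand) and chr5:92349063-92349132 (Cxcl10, minus strand).
Isg15: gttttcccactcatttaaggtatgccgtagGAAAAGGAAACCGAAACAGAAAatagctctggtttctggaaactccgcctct
Ifit1: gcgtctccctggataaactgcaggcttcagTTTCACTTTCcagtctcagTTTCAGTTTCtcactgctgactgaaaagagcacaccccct
Ifit3: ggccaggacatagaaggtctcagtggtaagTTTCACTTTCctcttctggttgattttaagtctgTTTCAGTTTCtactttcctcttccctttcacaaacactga
Ifit3b: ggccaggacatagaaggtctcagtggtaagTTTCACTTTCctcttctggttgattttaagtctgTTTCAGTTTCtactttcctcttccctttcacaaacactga
Oas1a: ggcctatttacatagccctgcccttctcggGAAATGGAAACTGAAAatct
Oas1g: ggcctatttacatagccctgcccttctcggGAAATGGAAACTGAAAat
Rsad2: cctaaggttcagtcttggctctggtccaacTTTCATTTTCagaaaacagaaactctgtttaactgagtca
Cxcl10: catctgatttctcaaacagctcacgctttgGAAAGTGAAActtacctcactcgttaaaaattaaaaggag

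Isg15 carried 3 overlapping matches, and Ifit1, Ifit3 and Ifit3b carried 2 separate matches each. The stretches of Ifit3 and Ifit3b had 0 differences over 104 bases, and those of Oas1a and Oas1g had 0 differences over the 48 bases they share. These pairs are also close copies as transcripts: 61.8% of the 31-base words of Ifit3 and 55.3% of those of Ifit3b occurred in another gene of the GENCODE annotation, and 68.8% for Oas1a and 55.1% for Oas1g, so that reads of each pair may have been divided between them and their separate levels are uncertain. Other members with a large shared part were Ifi204 (34.6%), Slfn8 (27.3%), Slfn4 (20.9%), Ifitm3 (20.5%) and Ifit1bl1 (19.3%). A match of letters is a description of the sequence and not a measured binding site.

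The libraries were first checked on their labels. Foxo3 had 1.68, 2.18, 2.00, 3.68, 4.27 and 0.844 TPM in FOXO3 KO libraries 1, 2, 3, 05, 06 and 09, against 10.3, 7.61, 9.30, 11.7 and 7.63 TPM in WT libraries 1, 2, 3, 03 and 08, so that each FOXO3 KO library lay below each WT library (exact permutation test over the libraries, two-sided p = 0.0043, which no other split could lower). The TPM of a library summed to between 935140 and 952238, and the number of reads behind each value is unknown. S100a9, a marker of PMNs, ranged over 58188 to 119027 TPM in FOXO3 KO and 70062 to 148716 TPM in WT libraries. The summed level of 16 neutrophil markers was 114624 to 205035 TPM in FOXO3 KO and 132422 to 269967 TPM in WT libraries. The two-digit libraries held more B cell transcripts, with summed levels of 15 B cell markers of 10585, 6361 and 2327 TPM in FOXO3 KO 05, 06 and 09 and 2469 and 4465 TPM in WT 03 and 08, against 181 to 690 TPM in the FOXO3 KO and 149 to 1612 TPM in the WT single-digit libraries. The Y-linked Ddx3y was at 42.9 and 18.0 TPM in FOXO3 KO 3 and 09. In WT 03 and 08 it was at 20.2 and 18.3 TPM, and in the other 7 libraries at 0.264 TPM or less. FOXO3 KO 3 was thus the only single-digit library above that level, and the sexes were unevenly spread over the numbering series. Xist, a transcript of female cells, was at 4.29 TPM in FOXO3 KO 3 and 0.00603 TPM in FOXO3 KO 09. It was at 0.115 and 0.0447 TPM in WT 03 and 08, and at 27.7 TPM or more in the remaining libraries. FOXO3 KO 3 thus held more Xist than the other libraries with high Ddx3y. In RNA from a cell population, fewer cells of a type and less RNA per cell cannot be told apart.

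Across the genotypes, the members tested lay lower in FOXO3 KO than in WT PMNs as a group, but no single gene passed the test. This holds for the list used here, which was chosen with earlier results of these data known. The log2 fold change of log2(TPM + 1), FOXO3 KO over WT, was negative for 43 of the 43 members tested, while 31.4% of all 12195 genes tested were negative. The median over the members was -0.44, with members between -1.19 (Oasl2) and -0.058 (Stat2), and the median over all genes was 0.11, a difference of -0.55. In plain TPM the mean of FOXO3 KO over the mean of WT was 0.443 to 0.993 with a median of 0.731. Over 68 further interferon-stimulated genes tested, the median log2 fold change was -0.12 and 43 were negative. Of the 43 members, 0 were called by limma with Benjamini-Hochberg adjustment at FDR < 0.05 (smallest adjusted p = 0.990), as were 0% of all genes. Foxo3 itself was not called either (log2 fold change -1.65, standard error 0.26, adjusted p = 0.488 in limma). The absence of a call therefore does not show equal levels. At an unadjusted p below 0.05, 1 member was lower (Ifitm3) and 0 were higher, against 0.549% of all genes lower. That count of lower members was 13 without WT 1, 7 without FOXO3 KO 05, 5 without FOXO3 KO 2 and 1 without FOXO3 KO 3 or FOXO3 KO 06, and 0 without any one of the other 6 libraries. With sample weights it was 14. Over all genes, 128 of 12201 were lower without WT 1, 69 of 12128 without FOXO3 KO 05 and 77 of 12186 without FOXO3 KO 2. With weights 243 of 12195 were lower. The members' smallest adjusted p in limma was 0.875 without WT 1 and 0.498 with weights. In 0 members did every FOXO3 KO library lie below every WT library, as in 0.0492% of all genes (6 genes, Foxo3 among them). The members varied together from mouse to mouse, so the 43 signs are not 43 separate observations, and leaving out WT 03 gave 38 of 43 negative.

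**Figure D1:**
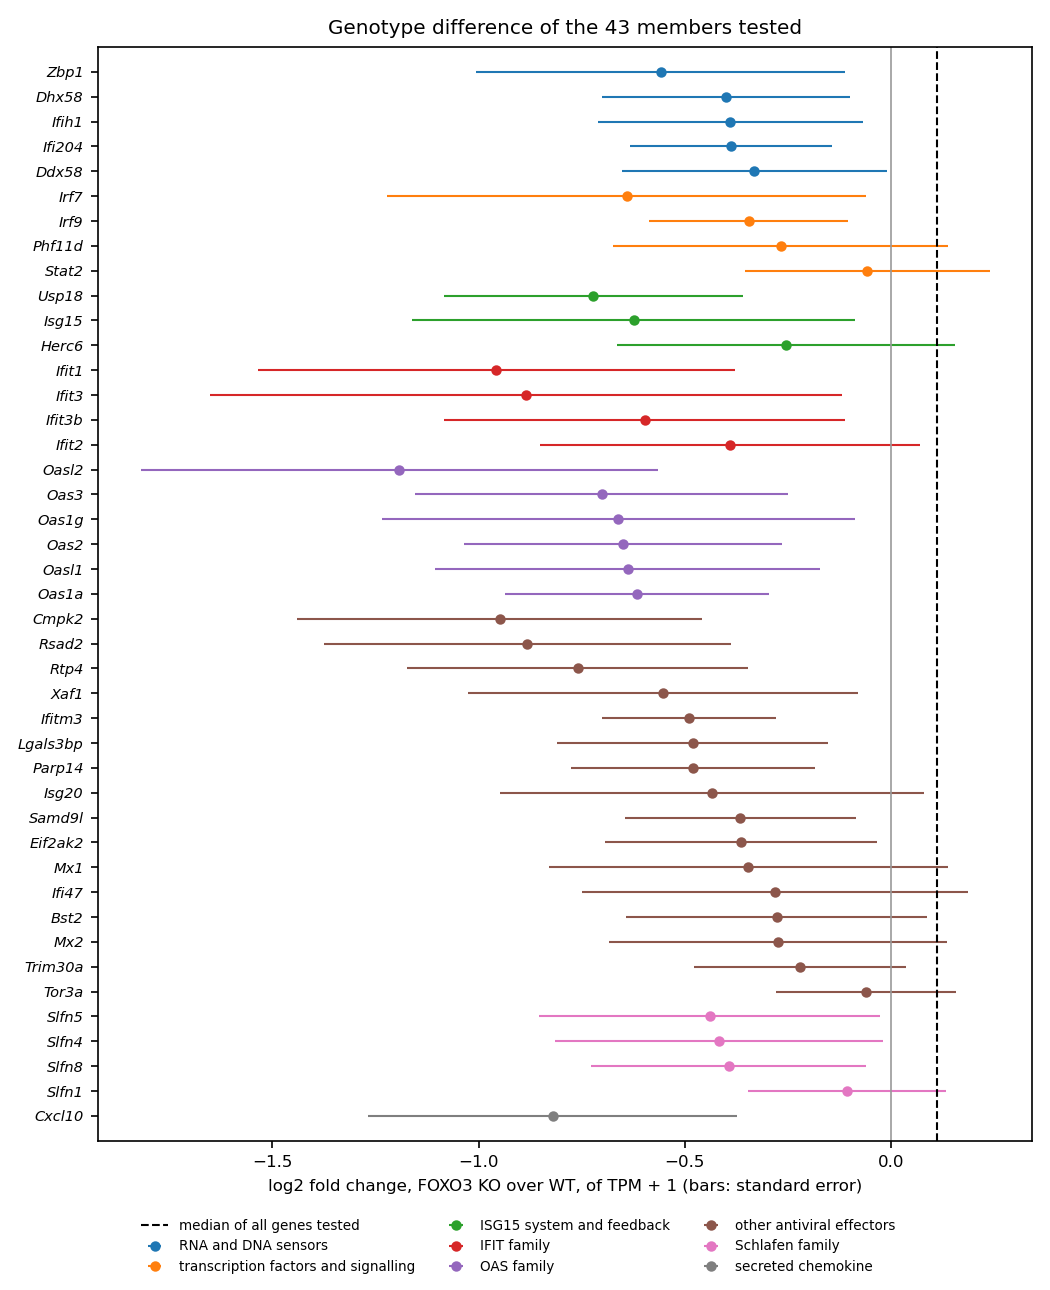
Log2 fold change, FOXO3 KO over WT, of TPM + 1 for each of the 43 members tested (points) with its standard error (bars), coloured and grouped by role, with the median of all genes tested as a dashed line. All points lie left of 0, from -1.19 for Oasl2 to -0.058 for Stat2, and no member passed FDR < 0.05.

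Among the nucleic acid sensors, 5 of 5 had a negative log2 fold change, with a median of -0.39, and 0 were called. Zbp1, a sensor of Z-form nucleic acids, had 31.2, 103, 61.3, 163, 107 and 56.6 TPM in FOXO3 KO 1, 2, 3, 05, 06 and 09, against 42.8, 136, 107, 149 and 197 TPM in WT 1, 2, 3, 03 and 08. The groups overlapped widely, since WT 1 lay below 5 of the FOXO3 KO libraries. Ifi204, a DNA sensor of the PYHIN family, had 112, 177, 130.4, 109, 78.5 and 74.2 TPM in the FOXO3 KO libraries in the same order, against 98.8, 175, 123, 164 and 169 TPM in the WT libraries. The FOXO3 KO values of the two-digit series were all below both of its WT values, while in the single-digit series the genotypes were interleaved. Of the RNA helicases, Ddx58 (RIG-I) averaged 32.6 ± 12.01 TPM in FOXO3 KO and 40.6 ± 12.7 TPM in WT PMNs. Ifih1 (MDA5) averaged 12.7 ± 6.28 TPM in FOXO3 KO and 15.8 ± 3.76 TPM in WT PMNs, and Dhx58 (LGP2) averaged 20.7 ± 6.64 TPM in FOXO3 KO and 28.6 ± 12.2 TPM in WT PMNs (SD, n = 6 and 5).

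The transcription factors gave the smallest difference as a group, with a median log2 fold change of -0.31 over 4 tested genes. Irf7, the factor that drives the second wave of interferon-α transcription, had 20.8, 111, 49.3, 210.1, 104 and 32.0 TPM in FOXO3 KO 1, 2, 3, 05, 06 and 09, against 35.2, 126, 115, 119 and 192 TPM in WT 1, 2, 3, 03 and 08. The highest and the lowest value of Irf7 were both in FOXO3 KO libraries. Irf9, the DNA-binding subunit of ISGF3, averaged 41.1 ± 13.2 TPM in FOXO3 KO and 51.5 ± 11.2 TPM in WT PMNs (log2 fold change -0.35, standard error 0.24). Stat2, its transactivating subunit, averaged 30.7 ± 13.5 TPM in FOXO3 KO and 30.9 ± 9.95 TPM in WT PMNs and had the log2 fold change nearest to 0 of all members (-0.058, standard error 0.30). The PHD finger gene Phf11d averaged 5.98 ± 4.08 TPM in FOXO3 KO and 7.32 ± 5.06 TPM in WT PMNs (SD, n = 6 and 5).

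Genes of the ISG15 system had a median log2 fold change of -0.62 over 3 genes. Isg15 encodes the ubiquitin-like protein that is joined to newly made proteins in interferon-treated cells. Its level was 41.8, 126, 90.2, 396, 157 and 78.6 TPM in FOXO3 KO 1, 2, 3, 05, 06 and 09, against 63.0, 189.7, 184, 231 and 353 TPM in WT 1, 2, 3, 03 and 08. FOXO3 KO 05 held the highest Isg15 value of all 11 libraries, while the other 5 FOXO3 KO values were below every WT value except that of WT 1. Usp18, the protease that removes ISG15 and also blocks IFNAR2 signalling, had 7.29, 18.0, 9.11, 26.6, 11.2 and 6.67 TPM in the FOXO3 KO libraries, against 10.02, 23.2, 18.6, 30.4 and 23.2 TPM in the WT libraries. Its log2 fold change of -0.72 (standard error 0.36) had an unadjusted p of 0.069 in limma and an adjusted p of 0.990. Herc6, which in mice joins ISG15 to its targets, averaged 9.72 ± 7.48 TPM in FOXO3 KO and 10.2 ± 3.12 TPM in WT PMNs.

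The IFIT genes, whose products bind foreign RNA and hold back its translation, had the lowest median of the families with several members, -0.74 over 4 tested genes. Ifit3 had 0.283, 6.46, 3.29, 27.5, 5.98 and 1.29 TPM in FOXO3 KO 1, 2, 3, 05, 06 and 09, against 1.06, 11.4, 8.02, 14.5 and 20.8 TPM in WT 1, 2, 3, 03 and 08. The values of Ifit3 spanned 97.3-fold over the 11 libraries, the widest range of the tested members, with both ends in FOXO3 KO. Its near copy Ifit3b had 0.262, 1.47, 1.09, 5.46, 1.05 and 0.728 TPM in the FOXO3 KO libraries, against 0.168, 3.39, 2.41, 2.77 and 6.80 TPM in the WT libraries. Ifit1 averaged 8.87 ± 7.07 TPM in FOXO3 KO and 17.1 ± 8.69 TPM in WT PMNs (log2 fold change -0.96, standard error 0.58), and Ifit2 averaged 2.03 ± 2.66 TPM in FOXO3 KO and 2.46 ± 1.33 TPM in WT PMNs (-0.39, standard error 0.46).

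The OAS genes encode synthetases of 2-5A, which switches on RNase L, and their OAS-like relatives. The 6 members had a median log2 fold change of -0.66, with 5 of them between -0.70 and -0.62. Oasl2 had 8.34, 67.4, 34.1, 78.8, 58.0 and 10.4 TPM in FOXO3 KO 1, 2, 3, 05, 06 and 09, against 23.5, 127, 88.2, 74.6 and 108 TPM in WT 1, 2, 3, 03 and 08. Apart from WT 1, no WT library was below 74.6 TPM, and 1 FOXO3 KO library was above it. Oas1a had 39.1, 89.8, 49.4, 83.7, 74.5 and 25.5 TPM in the FOXO3 KO libraries, against 55.2, 104, 99.5, 80.0 and 97.2 TPM in the WT libraries. The log2 fold changes were -1.19 (standard error 0.63, unadjusted p = 0.081 in limma) for Oasl2 and -0.62 (standard error 0.32, unadjusted p = 0.077) for Oas1a, both at an adjusted p of 0.990. Oas2 averaged 35.7 ± 18.1 TPM in FOXO3 KO and 53.2 ± 20.3 TPM in WT PMNs, and Oas3 averaged 39.4 ± 17.9 TPM in FOXO3 KO and 63.5 ± 26.8 TPM in WT PMNs. Oas1g was at 2.73 TPM in FOXO3 KO 09 and at 14.5 TPM or more in each other library, and Oasl1 averaged 14.6 ± 10.2 TPM in FOXO3 KO and 20.8 ± 8.71 TPM in WT PMNs.

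Of the other antiviral effectors, 16 of 17 were tested, and all 16 had a negative log2 fold change with a median of -0.40. Ifitm3, which blocks the fusion of viruses with the endosome, had the smallest p of all members. It had 736, 1215, 1064, 1148, 1176 and 872 TPM in FOXO3 KO 1, 2, 3, 05, 06 and 09, against 948, 1514, 1354, 1934 and 1602 TPM in WT 1, 2, 3, 03 and 08. All FOXO3 KO libraries were below 4 of the 5 WT libraries, and only WT 1 lay among them. The log2 fold change was -0.49 (standard error 0.21, unadjusted p = 0.038 in limma, adjusted p = 0.990).

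Rsad2 (viperin), which makes a chain-terminating nucleotide, had 6.98, 37.0, 24.0, 44.9, 25.8 and 14.5 TPM in FOXO3 KO 1, 2, 3, 05, 06 and 09, against 12.5, 61.0, 50.5, 50.7 and 59.2 TPM in WT 1, 2, 3, 03 and 08. Cmpk2, its neighbour on chromosome 12 and a nucleotide kinase, had 1.07, 5.79, 5.44, 7.29, 4.57 and 1.77 TPM in the FOXO3 KO libraries, against 1.71, 13.6, 9.54, 15.3 and 8.55 TPM in the WT libraries. In both genes, all FOXO3 KO libraries were below every WT library other than WT 1. Rtp4, a receptor transporter protein, had 18.5, 64.1, 39.3, 81.1, 44.0 and 24.3 TPM in the FOXO3 KO libraries, against 28.2, 93.5, 64.5, 91.7 and 95.8 TPM in the WT libraries. The log2 fold changes were -0.88 for Rsad2, -0.95 for Cmpk2 and -0.76 for Rtp4, with standard errors of 0.49, 0.49 and 0.41.

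Isg20, an RNA exonuclease, had 15.9, 52.5, 53.3, 129, 88.7 and 46.4 TPM in FOXO3 KO 1, 2, 3, 05, 06 and 09, against 26.5, 75.1, 89.3, 72.1 and 161 TPM in WT 1, 2, 3, 03 and 08. Bst2 (tetherin), which holds budding virions at the cell surface, had 86.7, 109, 48.2, 180.2, 77.8 and 68.1 TPM in the FOXO3 KO libraries, against 107, 84.7, 63.3, 237 and 97.5 TPM in the WT libraries. For Bst2 the groups were interleaved apart from WT 03, the highest library. Samd9l, an antiviral brake on translation, had 65.6, 158, 147, 112, 83.2 and 70.0 TPM in the FOXO3 KO libraries, against 106, 178, 179, 93.1 and 115 TPM in the WT libraries. Trim30a, a TRIM family protein, had 69.1, 105, 63.5, 97.7, 61.8 and 36.2 TPM in the FOXO3 KO libraries, against 70.5, 108, 86.3, 75.4 and 65.3 TPM in the WT libraries, and its log2 fold change was -0.22 (standard error 0.26). Mx1 and Mx2, the Mx GTPases, which RefSeq lists as transcribed pseudogenes in this strain's genome, averaged 3.20 ± 2.84 and 2.19 ± 2.47 TPM in FOXO3 KO PMNs, against 4.66 ± 4.44 and 2.39 ± 1.21 TPM in WT PMNs. Eif2ak2 (PKR, the double-stranded RNA kinase), the ADP-ribosyltransferase gene Parp14, Xaf1 and Lgals3bp had log2 fold changes of -0.36, -0.48, -0.55 and -0.48, and Tor3a of -0.061.

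The Schlafen genes held the most abundant member. Slfn4, a myeloid Schlafen gene of mice, had 1067, 3289, 3416, 1951, 2373 and 1239 TPM in FOXO3 KO 1, 2, 3, 05, 06 and 09, against 2151, 4159, 5333, 1666 and 1818 TPM in WT 1, 2, 3, 03 and 08. Slfn4 and Ifitm3 together made up 51.8% to 74.7% of the summed TPM of the 46 members in a library. Slfn1 had 191, 286, 281, 290.1, 352 and 197 TPM in the FOXO3 KO libraries, against 181, 357, 302, 222 and 399.7 TPM in the WT libraries, the narrowest range of the tested members (2.21-fold over the 11 libraries). The median log2 fold change of the 4 Schlafen genes was -0.41, with Slfn5 at -0.44, Slfn4 at -0.42, Slfn8 at -0.39 and Slfn1 at -0.11. Cxcl10 encodes a secreted chemokine, which draws CXCR3-bearing lymphocytes. Cxcl10 had 5.92, 20.8, 21.5, 25.4, 20.7 and 22.3 TPM in the FOXO3 KO libraries, against 13.7, 71.9, 28.7, 57.0 and 21.4 TPM in the WT libraries. The FOXO3 KO values lay close together apart from FOXO3 KO 1, while the WT values were spread from 13.7 to 71.9 TPM (log2 fold change -0.82, standard error 0.45, adjusted p = 0.990 in limma).

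**Figure D2:**
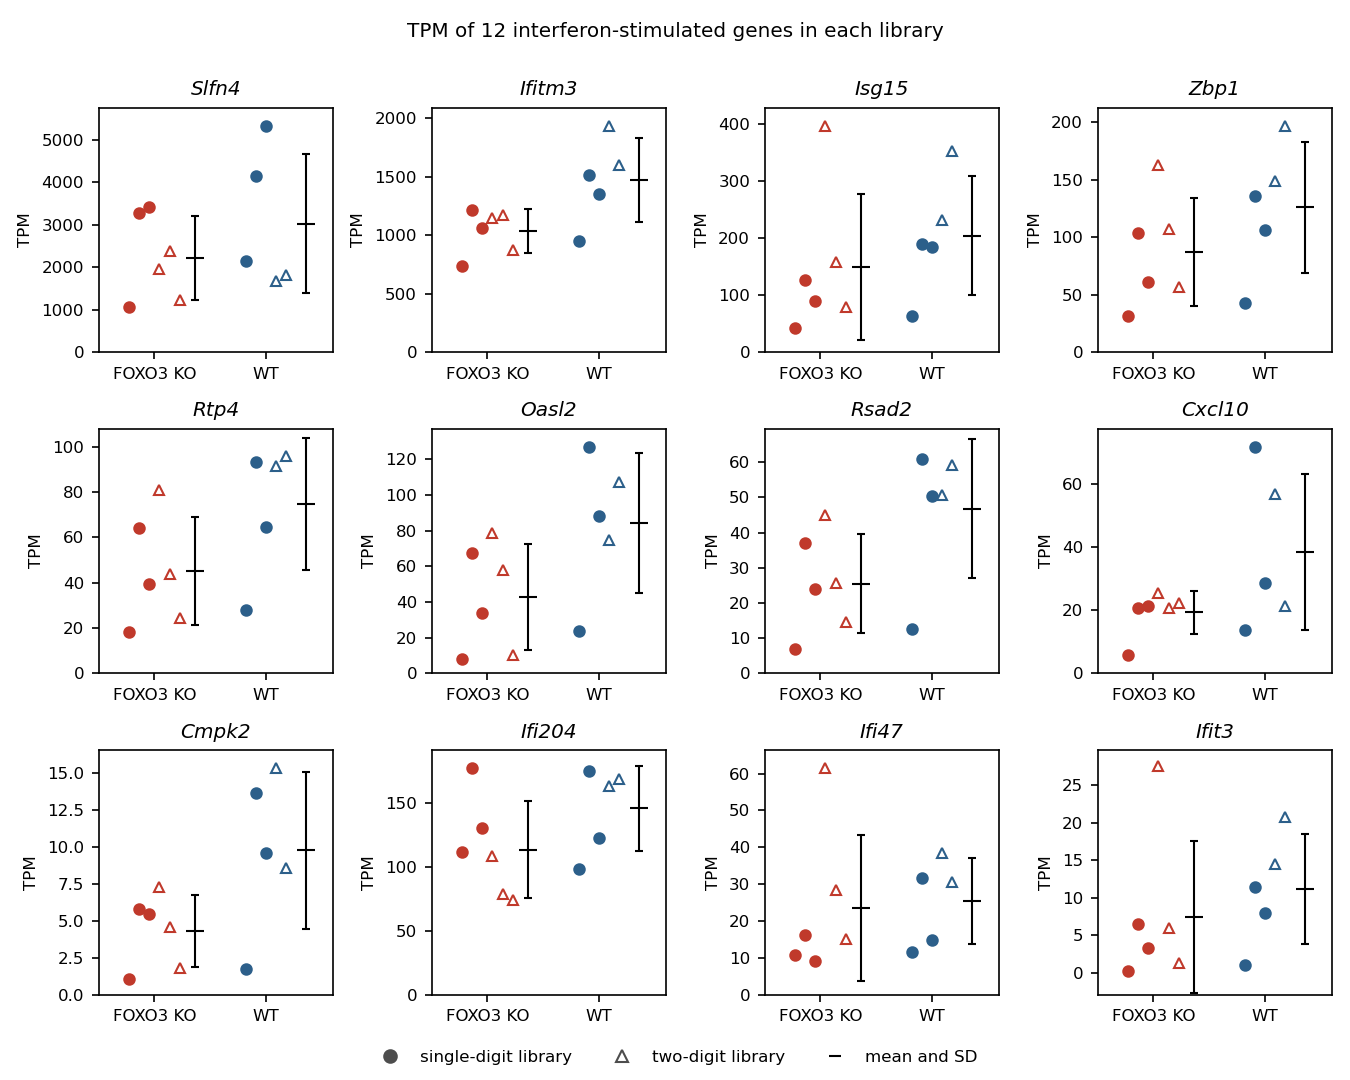
TPM (vertical axis, linear) of 12 members in each FOXO3 KO library (red, left) and WT library (blue, right), with filled circles for single-digit and open triangles for two-digit libraries and the mean with its SD beside each group (n = 6 FOXO3 KO and 5 WT). The groups overlap in each panel, through WT 1 alone for Ifitm3, Rsad2 and Cmpk2 and through further libraries in the others. FOXO3 KO 05 reaches 396 TPM for Isg15 and 27.5 TPM for Ifit3.

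The members varied together over the libraries. Over the 903 pairs of tested members, the median Pearson correlation of log2(TPM + 1) across the 11 libraries was 0.72, and 53.2% of pairs were above 0.7, while 7 pairs were negative. These correlations share the same 11 libraries and are a description. With the means of genotype and series taken out, the median was 0.79. The first principal component of the members held 76.9% of their variance. Their median SD over the libraries was 0.73 on the log2 scale, against 0.42 for all genes tested. The members' values spanned 2.21-fold to 97.3-fold over the libraries, with a median of 5.36-fold.

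Irf9 was the member most like the mean of the others (r = 0.99 over 11 libraries), followed by Rtp4, Ifit1 and Slfn5 (0.98 each). At the other end were Bst2 (0.44), Tor3a (0.48), Slfn4 (0.50) and Lgals3bp (0.53). Bst2 took part in 3 of the 7 negative pairs and had its lowest correlation with Slfn4 (r = -0.34). The closest pairs were Irf9 with Oasl1, Isg15 with Ifit3 and Slfn5 with Slfn8 (r = 0.99 each).

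The mean log2(TPM + 1) of the tested members placed the libraries in a clear order. In FOXO3 KO 1, 2, 3, 05, 06 and 09 it was 3.96, 5.28, 4.77, 5.71, 4.83 and 4.06, against 4.35, 5.67, 5.32, 5.57 and 5.45 in WT 1, 2, 3, 03 and 08. FOXO3 KO 1, FOXO3 KO 09 and WT 1 were the low libraries, and FOXO3 KO 05 and WT 2 the high ones. FOXO3 KO 1 held the lowest value for 20 of the 43 members and FOXO3 KO 09 for 16. The lowest 3 libraries of a member included FOXO3 KO 09 for 40 members, FOXO3 KO 1 for 36 and WT 1 for 30. The highest value fell in WT 2 for 12 members, FOXO3 KO 05 for 11, WT 03 for 9 and WT 08 for 6. The group means were 4.77 ± 0.68 in FOXO3 KO (SD, n = 6) and 5.27 ± 0.53 in WT (SD, n = 5), so the difference was smaller than the spread among FOXO3 KO mice.

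**Figure D3:**
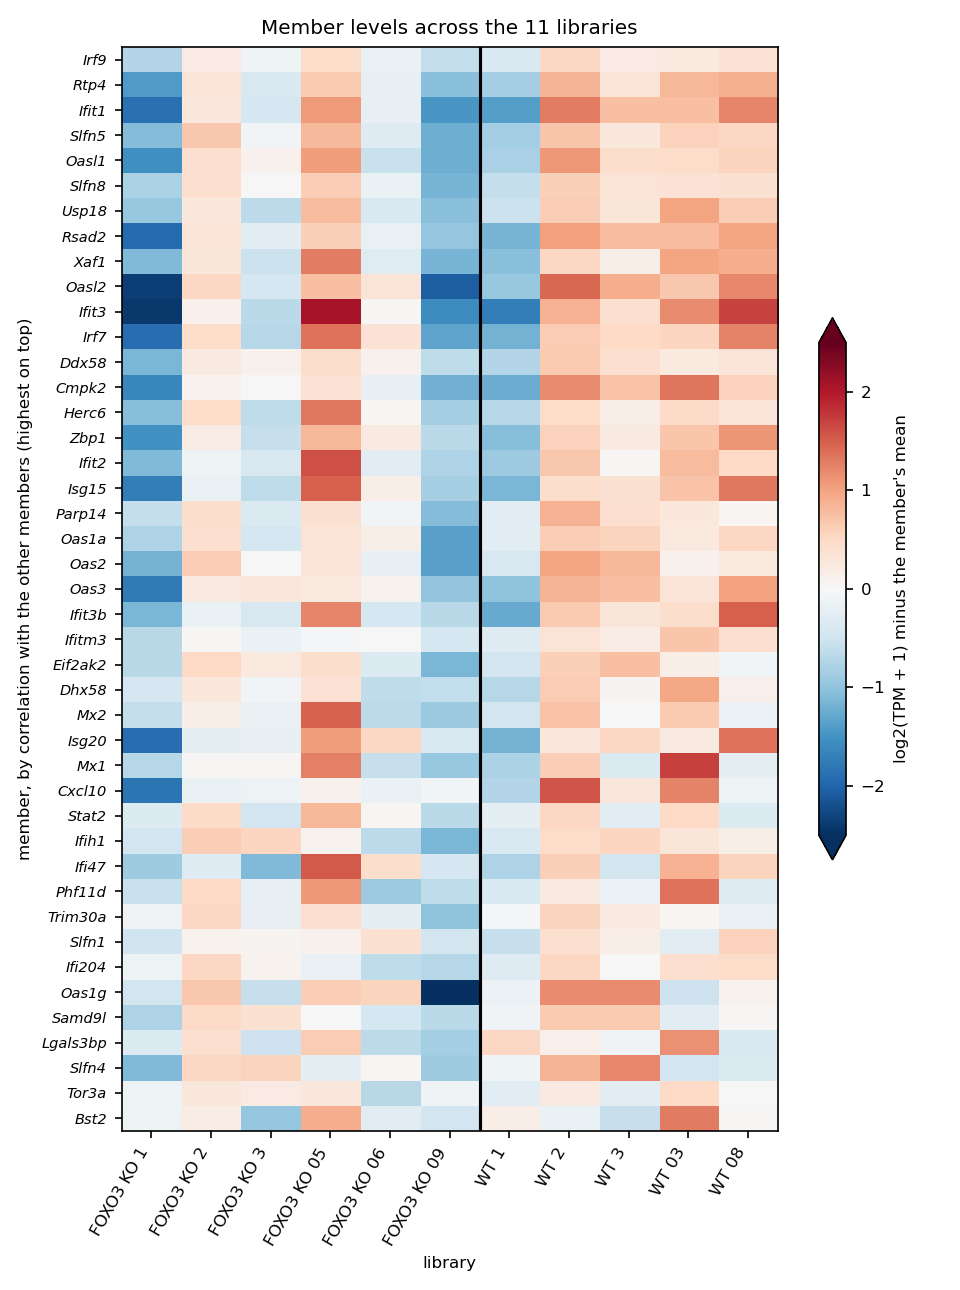
Log2(TPM + 1) of each tested member minus its own mean (colour, scale at the right) in each library (columns, FOXO3 KO left of the line and WT right of it), with members ordered by their correlation with the other members. FOXO3 KO 1, FOXO3 KO 09 and WT 1 are blue over most members, and FOXO3 KO 05 and WT 2 are red.

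Since the numbers 1, 2 and 3 occur in both genotypes, the genotypes can also be set side by side within a number, although the labels do not give these as pairs. FOXO3 KO 1 was below WT 1 in 37 of 43 members with a median log2 difference of -0.35, FOXO3 KO 2 below WT 2 in 37 with -0.35, and FOXO3 KO 3 below WT 3 in 40 with -0.46. Over all genes tested the medians of these differences were 0.18, 0.22 and 0.21. Ddx3y was at 42.9 TPM in FOXO3 KO 3 and 0.264 TPM in WT 3, and Xist at 4.29 and 42.1 TPM. The transcripts that mark sex thus differed within number 3, with both present in FOXO3 KO 3, and the part of sex was not tested. In 33 of 43 members the FOXO3 KO library was lower in all 3 pairs, against 6.82% of all genes. Oasl2 was lower by 1.39, 0.90 and 1.34 on the log2 scale in FOXO3 KO of pairs 1, 2 and 3, and Cxcl10 by 1.09, 1.74 and 0.40. With the number as a replicate block, 11 members had an unadjusted p below 0.05 in the direction of lower in FOXO3 KO, against 1.44% of all genes, and 0 were called at FDR < 0.05. Rsad2 had the smallest of these (unadjusted p = 0.0040 in limma). The members' smallest adjusted p with the block was 0.749.

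Within the single-digit libraries, 39 of 43 members had a negative log2 fold change (22.8% of all genes) with a median of -0.47. Within the two-digit libraries this held for 43 of 44 members that passed the filter there (44.5% of all genes), with a median of -0.67. The members with the other sign were Ifi204 (0.094), Tor3a (0.23), Ifih1 (0.012) and Phf11d (0.015) in the single-digit libraries and Slfn4 (0.041) in the two-digit libraries. Every two-digit FOXO3 KO library was below both two-digit WT libraries in 7 of 43 members, against 3.65% of all genes. A test of whether the genotype difference itself depended on the series (an interaction term in limma) called 0 of 43 members and 0% of all genes. Its smallest unadjusted p in limma among the members was 0.023, for Ifi204, at an interaction of -1.04 (two-digit minus single-digit) and an adjusted p of 1.00. In the two-digit libraries both WT mice and 1 of 3 FOXO3 KO mice expressed Ddx3y, so sex and genotype run together there in part, and the part of sex was not tested.

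**Figure D4:**
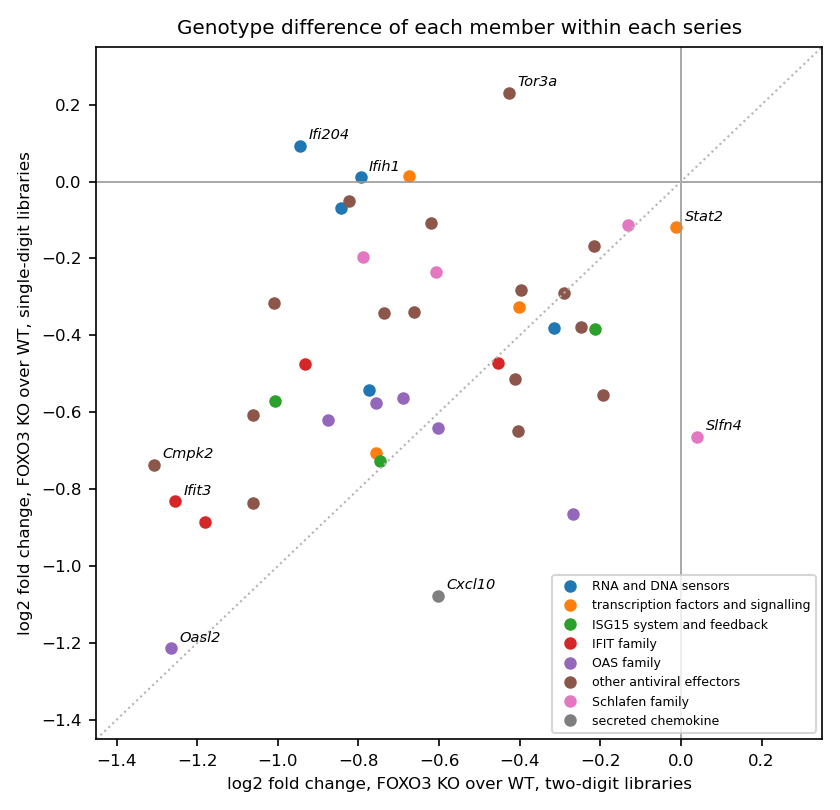
Log2 fold change, FOXO3 KO over WT, of TPM + 1 for each tested member (points, coloured by role) in the two-digit libraries (horizontal axis, 3 FOXO3 KO and 2 WT) and in the single-digit libraries (vertical axis, 3 and 3), with equal values on the dotted line. Most points lie below and left of 0. Above 0 on the vertical axis are Tor3a (0.23), Ifi204 (0.094), Phf11d (0.015) and Ifih1 (0.012), and right of 0 on the horizontal axis is Slfn4 (0.041).

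Between the 2 numbering series, 1 member passed the test. Two-digit minus single-digit libraries, with genotype in the model, gave a positive log2 difference for 34 of 43 members with a median of 0.24, while the median over all genes was -0.15. With sample weights the direction turned, with 31 of 43 members negative, a median of -0.35 and 5 members called lower. In that fit 66.7% of all genes were negative, their median was -0.22, and 4221 of 12195 genes were called lower. Without weights, 1 member was called higher and 0 lower at FDR < 0.05, against 8.36% of all genes higher and 12.3% lower. The share of members called was thus below that of all genes. After quantile normalization, 1595 genes were called higher and 1547 lower, against 1019 and 1506 without it, and the same member was called. It was Ifi47, an immunity-related GTPase that is also induced by interferon-γ. Ifi47 had 61.5, 28.3 and 15.1 TPM in the two-digit FOXO3 KO 05, 06 and 09 and 38.4 and 30.7 TPM in WT 03 and 08, against 10.8, 16.3 and 9.05 TPM in the single-digit FOXO3 KO 1, 2 and 3 and 11.6, 31.6 and 14.7 TPM in WT 1, 2 and 3. The log2 difference was 1.12 (standard error 0.35, adjusted p = 0.040 in limma). The series overlapped, since WT 2 lay above FOXO3 KO 06, FOXO3 KO 09 and WT 08, and FOXO3 KO 2 lay above FOXO3 KO 09. The call held without FOXO3 KO 09 or WT 2 and was lost without any other single library, at a log2 difference of 0.85 without FOXO3 KO 05 and 1.02 or more without each of the others.

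The members with the next smallest p were Isg15 (log2 difference 1.12), Isg20 (1.06) and Zbp1 (0.86), with adjusted p of 0.094, 0.10 and 0.13 in limma. Ifit3 and Ifit3b were at 1.35 and 0.81, and Slfn4 and Samd9l at -0.67 and -0.46, none of them called. The median of the members between the series turned to -0.094 without the libraries numbered 1 and was 0.080 without FOXO3 KO 1 alone, 0.085 without WT 1 and 0.11 without FOXO3 KO 05. Markers of several cell types moved with the series. Called higher in the two-digit libraries were 15 of 15 B cell, 10 of 10 T cell, 8 of 9 intestinal epithelial and 4 of 7 plasmacytoid dendritic cell markers and 7 of 14 interferon-γ-biased genes, and 6 of 12 macrophage markers were called lower. FOXO3 KO 05, with the highest B cell sum (10585 TPM), also had the highest Isg15 and Ifit3, but FOXO3 KO 06, with the next highest sum (6361 TPM), was in the middle for these genes. The sexes were also unevenly spread over the series. The part of these cells and of sex in the values of the members, Ifi47 included, was not tested.

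The rest of the pathway gave the following. Of 21 interferon ligand genes in the table, 16 were listed at 0 in every library and 1 (Ifng) passed the filter. Ifnb1 had 0.266, 0.211, 0.472, 0.312, 0 and 0.188 TPM in FOXO3 KO 1, 2, 3, 05, 06 and 09, against 0.535, 0.0585, 0.604, 0.647 and 0.288 TPM in WT 1, 2, 3, 03 and 08. The level of Ifnb1 was thus under 1 TPM throughout, also in FOXO3 KO 05 and WT 2, where the members were highest. Of 16 receptor and JAK-STAT genes tested, 9 had a negative log2 fold change between the genotypes, with a median of -0.069, and 0 were called. The receptor chain Ifnar1 averaged 102 ± 40.3 TPM in FOXO3 KO and 101 ± 23.4 TPM in WT PMNs. Ifnar2 averaged 108 ± 43.9 TPM in FOXO3 KO and 117 ± 32.4 TPM in WT PMNs (SD, n = 6 and 5).

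Of 17 sensors and adaptors upstream of interferon, 4 had a negative log2 fold change and the median was 0.12, beside 0.11 for all genes. Tlr9, the endosomal receptor of unmethylated DNA, had 23.2, 11.3, 6.87, 18.4, 16.1 and 21.2 TPM in FOXO3 KO 1, 2, 3, 05, 06 and 09, against 11.5, 5.45, 4.92, 10.99 and 9.62 TPM in WT 1, 2, 3, 03 and 08. Its log2 fold change of 0.83 (standard error 0.32, unadjusted p = 0.023 and adjusted p = 0.990 in limma) ran against that of the members. Among 68 further interferon-stimulated genes tested, 43 were negative with a median of -0.12, beside -0.44 for the members, and 0 were called. Parp12, an ADP-ribosyltransferase, was the 1 gene of that list with an unadjusted p below 0.05 (9.49 ± 3.85 TPM in FOXO3 KO and 14.9 ± 5.19 TPM in WT PMNs). Of 14 interferon-γ-biased genes, 5 were negative with a median of 0.13, and of 17 NF-kB target genes 3 were negative with a median of 0.12. The neutrophil markers lay the same way as the members: 13 of 14 had a negative log2 fold change, with a median of -0.34 and 0 called, among them the neutrophil-secreted Retnlg (-0.90) and the chemokine receptor gene Cxcr2 (-0.76). Macrophage markers were negative in 11 of 12 (median -0.25) and eosinophil markers in 6 of 6 (median -0.40), while 0 of 15 B cell markers were. The part of these cells in the members' difference was not tested. Of 9 markers of plasmacytoid dendritic cells, which are strong interferon-α producers, 7 were tested, with 2 negative and a median of 0.34 between the genotypes. Their summed level was 53.3 to 609 TPM in FOXO3 KO and 55.6 to 263 TPM in WT libraries, highest in FOXO3 KO 05, where Ly6d alone, which B cell precursors also express, had 560.1 TPM. The defining marker Siglech was at 0.091 to 2.97 TPM in FOXO3 KO and 0.371 to 1.52 TPM in WT libraries, and the part of these cells was not tested.

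Outside the members, 14 of 12152 genes correlated with the members' mean at r above 0.9 over the 11 libraries (0.115%). The 10 most alike were Ogfr (r = 0.98), Rnf213 (0.95), Oas1b (0.95), Dtx3l (0.94), Ddx60 (0.93), Trafd1 (0.93), Sp100 (0.93), Trim12c (0.92), Irgm1 (0.92) and Mov10 (0.92). Of these, 7 are on the list of further interferon-stimulated genes, while Ogfr, Trafd1 and Mov10 are on none of the lists. Ogfr, the opioid growth factor receptor gene, averaged 61.7 ± 15.1 TPM in FOXO3 KO and 70.3 ± 12.2 TPM in WT PMNs. All 10 had a negative log2 fold change between the genotypes, from -0.52 (Irgm1) to -0.12 (Trim12c), and 0 were called. They were picked for following the members' mean, which was lower in FOXO3 KO, so their shared sign is not a separate result.

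The members were also split by the ISRE letters, as a description with no test. The 18 tested members with the letters in a promoter window had a median log2 fold change of -0.54, FOXO3 KO over WT, and a median correlation of 0.88 with the other members, and the 15 with a window but no match had -0.42 and 0.91. Isg15, with 3 matches, and Oasl2 and Irf7, with none in their windows, had correlations of 0.90, 0.95 and 0.94 with the other members. Windows of 300 bases leave out elements that lie further away, and no window was matched for the remaining 11 members.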

How the data were processed

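RNA-seq libraries of peritoneal PMNs from 6 FOXO3 KO and 5 WT mice were taken as 1 table. The authors deposited TPM per gene and library, with tools named in the submitters' notes as STAR 2.6.1d, kallisto 0.46.0 and DESeq2, and builds as mm10 and hg38; which tool made the TPM, the annotation and the use of strand are not given in the sources used here. The deposited mean normalized count per gene, a signal over all libraries, was read only for its range in the tested members (75.4 to 217857). The table also holds the authors' own comparison (log2 fold change, its standard error, statistic, p and adjusted p), which was not used. TPM keep no depth, so no count test was run and the reads behind a value are unknown.

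Groups came from the labels, and library numbers from column names. The labels do not explain the numbers, and p-values measure the spread between these libraries, 1 per mouse. The 12195 genes of 54164 that averaged 1 TPM or more were tested on log2(TPM + 1) with limma 3.58.1 in R 4.3.3 (trend), with Benjamini-Hochberg adjustment over all of them and a threshold of 0.05. Fold changes on this scale understate those of low genes. The models were genotype alone, series with genotype as a covariate, and their interaction. Libraries of FOXO3 KO and WT with equal numbers deviated together from their group means (r = 0.55, 0.60 and 0.48 for numbers 1, 2 and 3), each above 0.1, so the numbers were read as pairs. Unequal numbers gave r of -0.049 to 0.51, the highest for FOXO3 KO 3 with WT 2 and above that of pair 3, and with deviations taken within the series the pairs gave 0.51, 0.17 and 0.41 and unequal numbers at most 0.089. The pairing is thus weakly marked, and the replicate block joined them with the other 5 libraries as 1 block. The pairing comes from these correlations, not from the labels.

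All 46 members are accounted for. Values in every library are given for Foxo3, the 12 members with the highest mean TPM, and the 8 with the smallest unadjusted p in the genotype and in the series comparison. From the other lists up to 4 genes each were named by p or by role, and the 10 genes most correlated with the mean of the members. Irf9, Ifit1, Stat2 and others shown by their means were named as members, and Ifnar1, Ifnb1 and Siglech for their roles after their values were seen. The members and lists were chosen with earlier results of these data known. Alternatives were quantile normalization, other filters and pseudocounts, sample weights, each library left out, each series alone and the block, and leaving out both libraries of 1 number was added after seeing the data. The limma fit of genotype was tested on simulated data in which each gene was drawn separately. Python 3.11.15, pandas 2.3.3, NumPy 2.4.6 and SciPy 1.17.1 were used, and figures were drawn with matplotlib 3.10.9. Promoter windows were RefSeq's (GRCm38.p6), and shared 31-base words were counted in GENCODE M21 transcripts.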

Additional observations from a re-analysis of the deposited data

Results flagged for a closer look

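In 11 of 86 groups of a member's libraries within a genotype, 1 library stood apart from the rest by Dixon's test. For separate groups of normally distributed values, chance gives about 1 in 20. The test was run on plain TPM and the members varied together, so the 11 flags are not separate observations. That rate is therefore no measure of how unusual the count is. FOXO3 KO 05 was the highest FOXO3 KO library, far above the next, in 7 members: Isg15 (396 TPM, next 157), Ifit2 (7.38, next 1.53), Ifit3 (27.5, next 6.46), Ifit3b (5.46, next 1.47), Mx1 (8.72, next 3.12), Mx2 (7.09, next 2.22) and Ifi47 (61.5, next 28.3). FOXO3 KO 1 was the lowest FOXO3 KO library for Cxcl10 (5.92 TPM, next 20.7). Among WT libraries, WT 03 was the highest for Phf11d (16.2 TPM, next 6.83) and Bst2 (237 TPM, next 107), and WT 1 was the lowest for Rsad2 (12.5 TPM, next 50.5).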

How the results depend on the processing

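Of 943 values of the 21 members followed under the alternatives, 891 kept their direction and side of the threshold and 28 changed sign. In the genotype comparison 0 members were called under any alternative. The median correlation of the members' pairs was 0.68 to 0.75 with a library left out. The members' median log2 fold change lay between -0.64 (without FOXO3 KO 05) and -0.31 (without FOXO3 KO 09) with a library left out. Genes called numbered 1 in the two-digit libraries alone and 0 to 2 with a library left out. With the replicate block, 0 genes were called, 11 members had an unadjusted p below 0.05 in place of 1, and no other call changed. Sign changes were Ifi204 in the single-digit libraries alone (0.094), Slfn4 in the two-digit libraries alone (0.041), and, with a library left out, Bst2 (-0.49 to 0.010) and Slfn1 (-0.26 to 0.021). Between the series, genes called higher numbered 1595 with quantile normalization, 599 with a mean of at least 5 TPM, 1571 with sample weights, 146 in WT alone and 577 in FOXO3 KO alone (585 to 1115 with a library or number left out). Genes called lower numbered 4221 with weights, 71 in WT alone and 871 in FOXO3 KO alone (674 to 2874 with a library and 530 to 1119 with a number left out, with 911 without number 3). Members called higher numbered 0 with no filter, in WT alone and in FOXO3 KO alone (0 to 2 with libraries left out), and members called lower 5 with weights (0 to 2). The members' median was -0.35 with weights and -0.094 to 0.56 with libraries left out. The interaction called 4 genes with a pseudocount of 0.1 and 1 with a mean of at least 5 TPM. With weights the series difference was -0.17 for Usp18, -0.36 for Oas1a, -0.37 for Oasl2, -0.12 for Rsad2, -0.35 for Cmpk2, -0.099 for Rtp4 and -0.39 for Cxcl10. For Oas1a it was -0.044 with series alone in the model, -0.039 in FOXO3 KO alone and -0.13 without FOXO3 KO 05, and 0.37 for Ifi204 in WT alone. With libraries left out it ranged over -0.25 to 0.29 for Oas1a, -0.31 to 1.01 for Oasl2, -0.12 to 0.99 for Rsad2, -0.21 to 0.81 for Cmpk2, -0.098 to 0.28 for Slfn1 (-0.0082 without WT 08 and 0.27 without WT 03), -0.11 to 0.86 for Cxcl10 and -0.36 to 0.0034 for Ifi204. The cause of these changes was not tested. Depth per library is unknown, so the counting error of a single value of members with low TPM could not be given. Over all libraries, the lowest mean normalized count of a tested member was 75.4.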
